A study of Mus musculus with 3 samples.

Results

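The retinoblastoma (pocket protein) and E2F families are 10 genes here: Rb1, Rbl1 and Rbl2 of the pocket proteins, and E2f1, E2f2, E2f3, E2f4, E2f5, E2f7 and E2f8 of the E2Fs. They were found by gene symbol, and all 10 had a row among the 17285 rows of the deposited count table. The data are RNA-seq of 1 group, Mock: 3 samples of the mouse melanoma line B16 made into a stable line with an empty vector and given no other treatment in the labels. No label says if the line is 1 clone, or if the 3 samples are separate cultures, so a p-value here covers the spread among these 3 libraries alone, and that spread may be technical. The extraction text speaks of organs, whereas all other labels give a cell line. The design allows a gene to be set against a fixed level, against another gene within a library, and across the libraries.

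As background, pocket proteins bind E2F transcription factors at the promoters of cell cycle genes and hold them silent in resting and early G1 cells. Cyclin-dependent kinases, led by cyclin D with Cdk4 or Cdk6 and by cyclin E with Cdk2, phosphorylate the pocket proteins, which then let go of the E2Fs. E2f1, E2f2 and E2f3 are classed as activators and bind mainly Rb1, E2f4 and E2f5 as repressors that work mainly with Rbl1 (p107) and Rbl2 (p130), and E2f7 and E2f8 as atypical repressors that need neither a pocket protein nor a DP partner. In melanoma the pathway is best known for losses at the INK4 locus, whose product p16 inhibits Cdk4 and Cdk6.

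Promoter windows show the DNA word that these factors read beside genes of their own families. RefSeq windows on GRCm38.p6, 250 bases before to 50 bases after a gene's start, were matched by symbol for 7 of the 10 members (Rbl1, Rbl2, E2f1, E2f2, E2f3, E2f7 and E2f8). An E2F word was searched on both strands as TTTCCCGC, TTTCGCGC, TTTGCCGC or TTTGGCGC. It stood in a window of 4 of these 7 members (4 of their 9 windows), against 2.26% of all 32851 windows and 3.28% of the windows with 50 to 80% GC. The windows of Rbl1, E2f2 and E2f3 are printed because their word lies nearest to the start, with the word in capitals, and each reads 5′ to 3′ on the gene's own strand.
Rbl1, chr2:157204485-157204784, minus strand: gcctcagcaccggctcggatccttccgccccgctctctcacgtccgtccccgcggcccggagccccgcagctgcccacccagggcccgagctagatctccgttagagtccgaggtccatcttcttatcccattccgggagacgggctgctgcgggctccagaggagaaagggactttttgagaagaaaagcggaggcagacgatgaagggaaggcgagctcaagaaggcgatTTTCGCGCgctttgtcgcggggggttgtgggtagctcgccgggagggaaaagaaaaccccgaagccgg
E2f2, chr4:136172024-136172323, plus strand: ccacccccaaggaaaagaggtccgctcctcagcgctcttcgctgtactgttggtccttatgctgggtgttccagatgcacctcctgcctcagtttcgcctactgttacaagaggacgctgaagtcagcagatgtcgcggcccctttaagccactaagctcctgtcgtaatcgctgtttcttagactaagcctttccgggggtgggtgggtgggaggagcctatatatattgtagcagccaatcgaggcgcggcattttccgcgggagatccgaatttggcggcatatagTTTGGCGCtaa
E2f3, chr13:29986014-29986313, minus strand: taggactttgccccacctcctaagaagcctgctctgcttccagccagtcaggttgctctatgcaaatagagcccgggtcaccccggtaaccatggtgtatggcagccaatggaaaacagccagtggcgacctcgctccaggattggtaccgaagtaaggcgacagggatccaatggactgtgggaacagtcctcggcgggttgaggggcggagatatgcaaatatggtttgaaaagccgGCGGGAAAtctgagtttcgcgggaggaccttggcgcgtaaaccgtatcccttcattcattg
Counted from the start as position 1, the word begins at position -18 in the Rbl1 window, at position 40 in the E2f2 window and at position -11 in the E2f3 window, where it lies on the opposite strand. E2f7 carries one further out, at position -198 on the opposite strand. The CHR word TTTGAA, a mark of promoters bound by the MuvB complex, which Rbl1 and Rbl2 can join, stood in 4 of the members' 9 windows (1 each of Rbl2, E2f2, E2f3 and E2f8), against 17.9% of all windows and 10.3% of those with 50 to 80% GC. The E2f2 window with a CHR word is the second, whose start lies 8388 bases inside the gene. The start of the E2f1 window lies 466 bases inside the gene as GENCODE M21 draws it, so it does not show the outermost promoter. E2f2 and E2f3 each have a second window, which holds no E2F word. The RefSeq start of E2f2 lies 120 bases upstream of GENCODE's. E2f3 is known to be made as the forms E2f3a and E2f3b from separate promoters, which counts per gene do not separate. A word in a window is a description of the letters and not evidence that a factor binds there.

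The libraries held 9328096, 9456527 and 9438905 counts in replicates 1, 2 and 3, so that 1 count was worth 0.106 to 0.107 CPM (counts over the library's total, scaled by TMM, times 1000000). All 8 pigment cell markers looked up (Tyrp1, Dct, Pmel, Mlana, Mitf, Sox10, Tyr and Gpnmb) were above 1 CPM, as were 74.3% of all genes tested. Tyr was far the lowest, with a mean of 6.56 CPM. The others ran from 135 CPM for Mitf to 12337 CPM for Tyrp1. Of the 10 markers of other cell types with a row, 3 were below 1 CPM (Pecam1, Acta1 and Alb, with 3, 3 and 2 reads in all) and 7 had no counts. No library stood apart in total. The 3 pairs of libraries differed from each other by more than counting error, at 1.62 to 1.96 times the chi-square expected from sampling.

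All 10 members had transcript levels above 1 CPM (edgeR, quasi-likelihood, adjusted p under 0.05), as had 74.3% of the 14408 genes tested, so the share of members is to be read against a common outcome. The members ran from 20.6 ± 1.32 CPM for E2f5 to 140.3 ± 3.81 CPM for E2f1 (mean ± SD, n = 3, as for all such values). Their median was 40.3 CPM, beside 23.6 CPM over all genes tested. Per kilobase of annotated exon, which is the scale for setting genes against each other, their median was 9.31 CPM per kilobase, beside 4.92 over all genes tested. Exon length is that of all GENCODE M21 exons of a gene merged, and other lengths are given where they change the order. Every length divides the same counts. Scaling by coding sequence therefore keeps the reads of non-coding parts and raises genes in which these parts are long. The largest adjusted p of any member under the alternatives tried was 3.75e-04 (edgeR, DESeq2 or exact Poisson). In bulk RNA a lower level in all cells and a like level in fewer cells cannot be told apart.

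**Figure D1:**
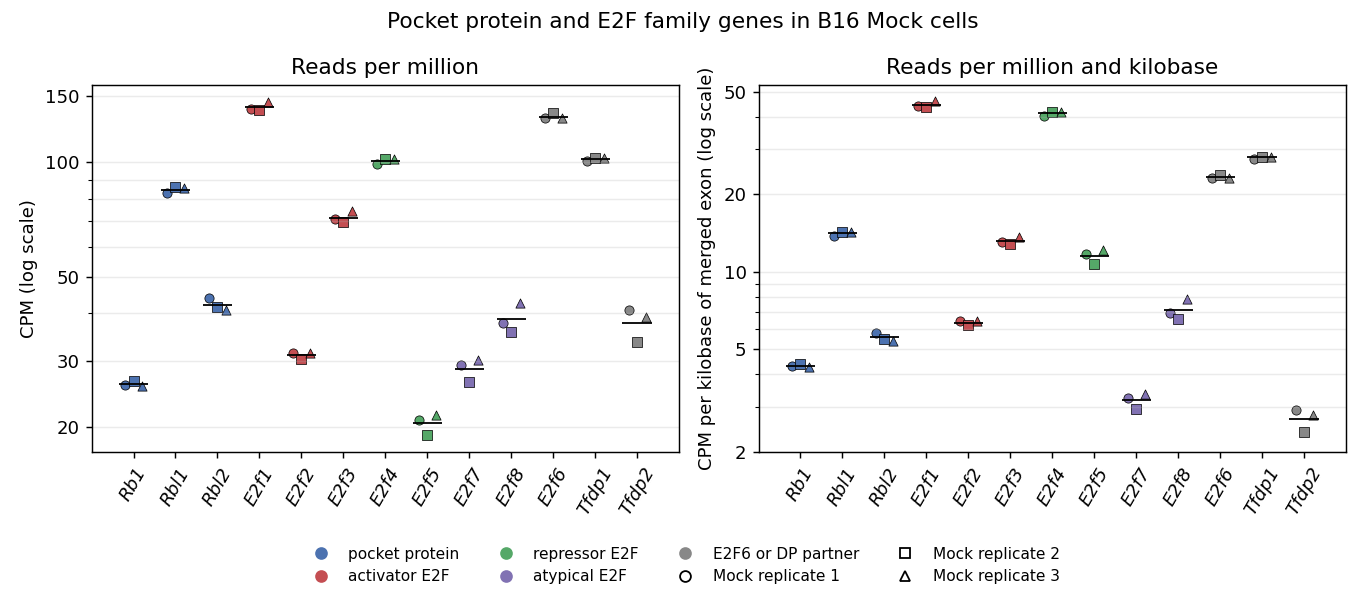
Level of each member and of E2f6, Tfdp1 and Tfdp2 in each of the 3 Mock libraries, as CPM (left) and as CPM per kilobase of merged exon (right), both on log axes, with a horizontal line at the mean of 3. E2f1 and E2f4 sit highest per kilobase among the members at 44.5 and 41.3, and the 3 libraries lie close together for every gene.

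Among the pocket proteins, Rbl1 was the most abundant and Rb1 the least. Rbl1 (p107), which is itself a cell cycle gene and rises in dividing cells, had 82.9, 86.0 and 85.5 CPM in replicates 1, 2 and 3. Rbl2 (p130), the pocket protein that prevails in resting cells, had 43.8, 41.5 and 40.8 CPM. Rb1, the retinoblastoma tumour suppressor itself, had 25.96, 26.5 and 25.7 CPM. The ranges of these 3 genes did not overlap. Per kilobase the means were 14.1 ± 0.274 for Rbl1, 5.56 ± 0.206 for Rbl2 and 4.33 ± 0.0701 for Rb1. By merged exons Rbl1 thus made up 58.8 ± 0.954% of pocket protein transcripts, Rbl2 23.1 ± 0.915% and Rb1 18.01 ± 0.170%. Rbl1 exceeded Rb1 by 1.71 on the log2 scale (95% interval 1.63 to 1.78, 3.26-fold) and Rbl2 by 1.35 (1.249 to 1.44, 2.54-fold), by limma on the ratios within each library. Rbl2 exceeded Rb1 by 0.36 (0.26 to 0.46, 1.28-fold). Each of these gaps was seen in 3 of 3 libraries. The SDs and intervals cover the libraries and not the choice of length. Under the other lengths Rbl1 exceeded Rb1 by 1.47 to 1.64 and Rbl2 by 1.01 to 1.11 on the log2 scale. Rbl2 then exceeded Rb1 by 0.39 to 0.61. Of all genes set against a member in the same way, 96.3% differed from Rb1 and 95.9% from Rbl2, so a call alone separates few genes. The largest adjusted p of these 3 gaps over the length and replicate alternatives was 0.00519 (limma), for Rbl2 over Rb1.

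The reads of Rb1 and Rbl2 carry an extra uncertainty, because exons of neighbours lie over theirs and no source used here states the use of strand in counting. Rb1 (chromosome 14, 73183673 to 73325822, minus strand, GRCm38) shares 488 exon bases with Rcbtb2 and 408 with Lpar6, both on the opposite strand and both in the table, with 201 to 217 and 98 to 119 reads a library beside 242 to 250 for Rb1. Rbl2 (chromosome 8, 91070057 to 91123844, plus strand) shares 693 exon bases with Aktip and 892 with Gm45464 on the opposite strand. It is the 1 member with fractional counts, 409.88, 391.87 and 384.79, as arise when reads are divided among genes. With the same counts scaled only by exon bases outside other genes, Rbl1 stood 1.47 above Rb1 and 1.01 above Rbl2 on the log2 scale. The order of the pocket proteins was the same. This scaling changes the length alone and removes no read of a shared exon. It therefore cannot show how many reads of Rb1 and Rbl2 came from neighbours. Rbl1 (chromosome 2, 157145893 to 157204534, minus strand) shares no exon base with another gene.

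Among the activators E2f1 prevailed. E2f1, which drives S phase genes and, at high activity, also apoptosis genes, had 139, 138 and 145 CPM in replicates 1, 2 and 3. E2f3, whose gene encodes both the activator E2f3a and the shorter E2f3b, had 70.7, 69.5 and 74.5 CPM. E2f2 had 31.4, 30.3 and 31.4 CPM. All 3 libraries kept the same order, with no overlap between the genes. Per kilobase the means were 44.5 ± 1.21 for E2f1, 13.2 ± 0.473 for E2f3 and 6.36 ± 0.129 for E2f2. E2f1 exceeded E2f3 by 1.75 on the log2 scale (95% interval 1.67 to 1.84) and E2f2 by 2.80 (2.73 to 2.88) by limma. Of all genes, 96.7% differed from E2f3 and 96.5% from E2f2. Scaled by coding sequence alone the gap of E2f1 over E2f3 was 1.06. The long non-coding part of the E2f3 transcript then no longer counts towards its length, while its reads still do. E2f3 exceeded E2f2 by 1.05 (0.97 to 1.14), and by 1.03 to 1.16 under the other lengths and with each replicate left out. E2f1 (chromosome 2, 154559407 to 154569892, minus strand), E2f2 (chromosome 4, 136172394 to 136196057, plus strand) and E2f3 (chromosome 13, 29906575 to 29986063, minus strand) share no exon bases with other genes.

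Of the repressors, E2f4 was the more abundant. E2f4, the E2F that carries most pocket protein complexes in G0 and early G1, had 99.1, 102 and 102 CPM. E2f5, its closest relative, had 20.9, 19.1 and 21.6 CPM, the lowest reads of any member. E2f5 is also the shortest member, so that per kilobase it reached 11.5 ± 0.742, the fifth highest of the 10. E2f4 reached 41.3 ± 0.711 per kilobase and exceeded E2f5 by 1.84 on the log2 scale (95% interval 1.69 to 1.98, 3.57-fold, 3 of 3 libraries), and by 1.78 to 2.13 under the other lengths and with each replicate left out. Of all genes, 94.8% differed from E2f5. E2f4 (chromosome 8, 105297663 to 105305370, plus strand) shares no exon base with another gene, and E2f5 (chromosome 3, 14578641 to 14606309, plus strand) shares 26 with 1810022K09Rik.

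The atypical pair was the scarcest class. E2f8 had 37.6, 35.6 and 42.5 CPM and E2f7 had 29.2, 26.4 and 30.1 CPM. Both genes are E2F targets themselves, and their proteins repress E2f1 and other S phase genes late in the cycle. Replicate 3 was the highest and replicate 2 the lowest library for both. Per kilobase the means were 7.09 ± 0.654 for E2f8 and 3.17 ± 0.215 for E2f7, a gap of 1.16 on the log2 scale (95% interval 0.99 to 1.33). Of all genes, 95.4% differed from E2f7. That gap depends on length, because the merged exons of E2f7 span 9009 bases and its longest coding transcript 5473. It was 0.9999 by longest coding transcript and 0.50 by coding sequence, with an adjusted p of at most 4.01e-09 (limma) in every alternative with a length. E2f8 (chromosome 7, 48866429 to 48881596, minus strand) shares 610 exon bases with Gm2788, and E2f7 (chromosome 10, 110745439 to 110787384, plus strand) shares 86 with 1700020G17Rik. Both partners lie on the opposite strand and had no row under these symbols.

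Ordered by CPM per kilobase of merged exon, the members ran E2f1, E2f4, Rbl1, E2f3, E2f5, E2f8, E2f2, Rbl2, Rb1 and E2f7. All 9 neighbouring pairs were called different, but so was nearly any gene from a member. The calls and intervals are from the fit relative to the lower gene (limma, adjusted over all 14095 genes with a length). Such a fit draws on the spread of all its genes and not on a pair's own 3 values alone. For E2f8 over E2f2 the SD of those values was 0.11, beside a log2 ratio of 0.15. In the fit relative to E2f8, E2f2 was not told apart from it (limma adjusted p = 0.165). The 95% interval of E2f2 over E2f8 was then -0.36 to 0.06. Against E2f4, Rbl1 and E2f8, 98.8%, 97.2% and 93.5% of all genes differed. The widest step was E2f4 over Rbl1, at 1.54 on the log2 scale (95% interval 1.47 to 1.62). The 5 smallest steps were at most 0.19. E2f1 over E2f4 was 0.11 (0.04 to 0.17), Rbl1 over E2f3 0.10 (0.01 to 0.20), E2f8 over E2f2 0.15 (0.05 to 0.26), and E2f3 over E2f5 and E2f2 over Rbl2 each 0.19. E2f5 stood over E2f8 by 0.71 (0.48 to 0.93), Rbl2 over Rb1 by 0.36 and Rb1 over E2f7 by 0.45 (0.27 to 0.63).

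Several of these steps depended on the gene length used. By longest coding transcript E2f1 and E2f4 were not told apart (log2 ratio 0.00, limma adjusted p = 0.891), nor were E2f5 and E2f8 (0.15, adjusted p = 0.209) or Rb1 and E2f7 (0.10, adjusted p = 0.274), and Rbl2 stood above E2f2. By coding sequence E2f3 and E2f2 moved up to the third and the fifth place. E2f1 and E2f4 held the first and the second place, and Rb1 and E2f7 the last 2, under all 4 lengths. Leaving out 1 library also ended some calls. Rbl1 over E2f3 lost its call without replicate 1 or 2 (adjusted p = 0.157 and 0.255), E2f3 over E2f5 without replicate 1 or 3 (0.145 and 0.0591), E2f8 over E2f2 without replicate 2 or 3 (0.0520 and 0.207), and E2f1 over E2f4 without replicate 1 (0.0537), all by limma.

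**Figure D2:**
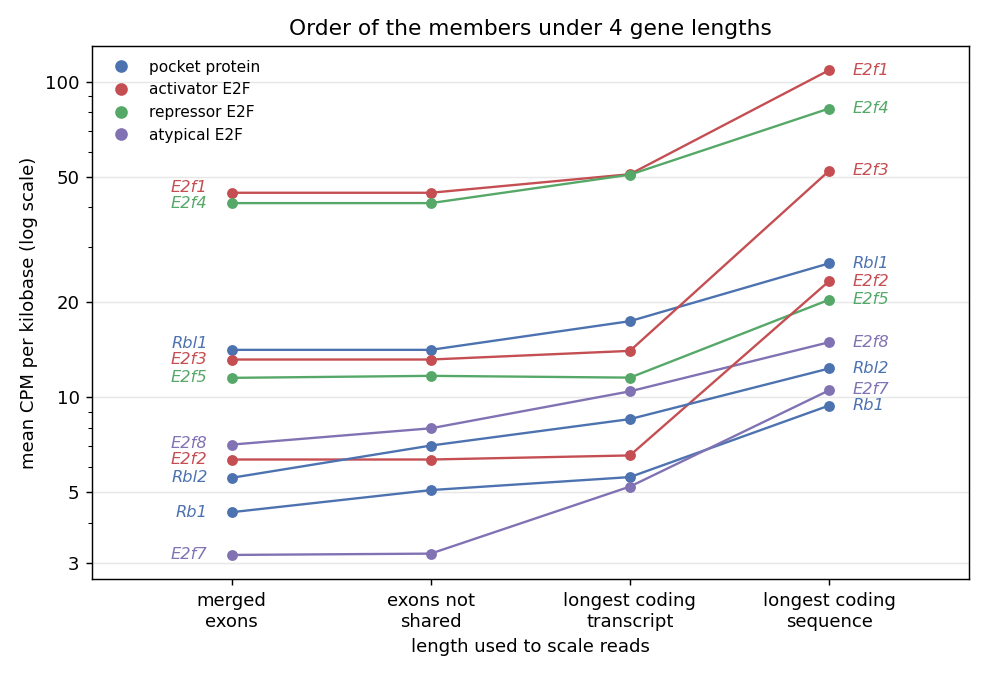
Mean CPM per kilobase (log axis) of the 10 members when reads are scaled by 4 different gene lengths, with lines joining the values of a gene. E2f1 and E2f4 are the upper pair and Rb1 and E2f7 the lower pair throughout, while E2f3 ranges between 13.2 and 52.2 and trades places with Rbl1.

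Summed by class, activator E2Fs held 64.0 ± 1.76 CPM per kilobase, repressor E2Fs 52.8 ± 0.845, atypical E2Fs 10.3 ± 0.848 and pocket proteins 24.0 ± 0.177. Activators thus made up 50.4% of the summed level of the 7 E2F members by merged exons, repressors 41.5% and atypical members 8.07%. The further repressor E2f6, at 23.3 ± 0.403 CPM per kilobase, is not among these members. Adding it to E2f4 and E2f5 would place the repressors above the activators by this length. Within these 7 E2F members, 2 genes carried most of the level: E2f1 contributed 35.01 ± 0.0404% and E2f4 32.5 ± 0.902%. E2f3 followed with 10.4 ± 0.0960%, E2f5 with 9.07 ± 0.412%, E2f8 with 5.57 ± 0.363%, E2f2 with 5.005 ± 0.103% and E2f7 with 2.49 ± 0.123%. The log2 ratio of activators over repressors was 0.28, 0.26 and 0.30 in replicates 1, 2 and 3. It ran from 0.20 by longest coding transcript to 0.84 by coding sequence. Activators were therefore higher than E2f4 with E2f5 under each length, by a margin that the length sets. Pocket proteins over all 7 E2Fs gave -2.40 ± 0.05. These sums are given as a description, with no test.

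**Figure D3:**
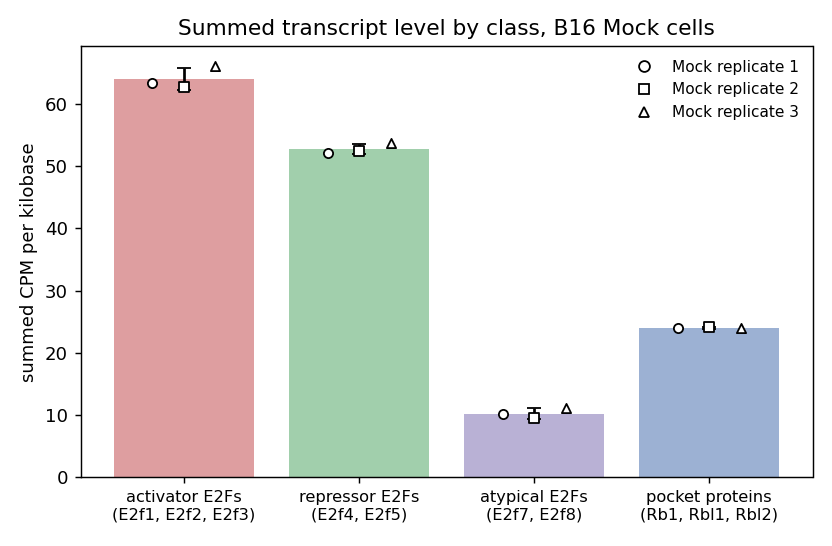
Summed CPM per kilobase of merged exon of each class, with bars at the mean, error bars of 1 SD over the 3 Mock libraries, and points for the single libraries. Activator E2Fs stand at 64.0, repressor E2Fs (E2f4 and E2f5, without E2f6) at 52.8, atypical E2Fs at 10.3 and pocket proteins at 24.0.

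Set against their usual partners, the pocket proteins were the scarcer side in transcripts. The activators summed to 14.7, 14.2 and 15.5 times the Rb1 level per kilobase in replicates 1, 2 and 3, and E2f4 with E2f5 summed to 2.66, 2.64 and 2.73 times that of Rbl1 with Rbl2. The first ratio averaged 14.8 ± 0.632 by merged exons, 12.8 ± 0.546 by longest coding transcript, 19.6 ± 0.843 by coding sequence and 12.6 ± 0.538 by exon bases outside other genes. The second averaged 2.68 ± 0.0487, 2.40 ± 0.0437, 2.64 ± 0.0483 and 2.50 ± 0.0492 by the same lengths in that order. These are transcript ratios and say nothing of protein amounts or of phosphorylation.

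The DP partners, with which E2f1 to E2f5 bind DNA as pairs, were led by Tfdp1. Tfdp1 had 101, 103 and 103 CPM, or 27.8 ± 0.246 CPM per kilobase, and Tfdp2 had 40.7, 33.6 and 39.1 CPM, or 2.70 ± 0.266 per kilobase. E2f1 to E2f5 together summed to 3.83 ± 0.0570 times the DP genes per kilobase by merged exons and 2.58 ± 0.0485 times by coding sequence. With E2f6 included the ratio was 4.59 ± 0.0465 by merged exons. Of the 31-base words of the Tfdp1 transcripts, 21.7% recur in the processed pseudogene Gm7390, which had no row under its symbol. The Tfdp1 count carries that uncertainty. The RefSeq windows of Tfdp1 overlap and hold the same single E2F word, TTTCGCGC on the opposite strand, at position -43 from the outer start. The windows of E2f6 and Tfdp2 hold no E2F word, and those of Tfdp2 start 62430 and 62973 bases inside the gene. E2f6, a repressor without a pocket protein site that acts in a Polycomb complex, had 131, 135 and 131 CPM, or 23.3 ± 0.403 per kilobase, below E2f1 and E2f4 and above the other members. By longest coding transcript its length is 2418 bases instead of 5663, so its place too depends on the length.

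No member varied between the 3 libraries beyond counting error at an adjusted p under 0.05 (Poisson deviance test, 0 of 10), as against 3.31% of the 11000 genes averaging 10 counts or more. Without adjustment 1 of 10 members passed, E2f8 (p = 0.0466 by the chi-square form of the test, adjusted p = 0.321), against 14.9% of genes. The highest library exceeded the lowest by 1.03-fold for Rb1 and E2f4 and by 1.19-fold for E2f8, with the other members between. The standard deviation was 1.62% of the mean for Rb1 and 9.23% for E2f8.

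Replicate 3 was the highest library for 5 of the 7 E2F members (E2f1, E2f3, E2f5, E2f7 and E2f8) and for none of the 3 pocket proteins, whereas it was the highest for 33.4% of all genes tested for variation. Among 31 S phase genes listed as E2F targets, such as Pcna, Rrm2 and the Mcm genes, 22 were highest in replicate 3, 8 in replicate 2 and 1 in replicate 1. Their median deviation from the mean of the 3 libraries was -0.04 in replicate 1, 0.01 in replicate 2 and 0.04 in replicate 3 on the log2 scale. For all genes tested the 3 medians were 0.00. Of 17 DREAM targets of G2 and M, such as Top2a and Plk1, 6 were highest in replicate 3 and 6 in replicate 1. Of 11 cyclin and kinase genes tested for variation, 8 were highest in replicate 3. The lean was thus not particular to the E2F members and the S phase list. Of 16 genes of corepressors bound by pocket proteins, 5 were highest in replicate 3. Most single genes of the S phase and the G2 and M lists were within counting error, but the shares beyond it were larger than among all genes. The test detects smaller differences in genes with more reads. These lists had medians of 90.8 and 88.6 CPM, beside 23.6 for all genes with a count. Of the 8 pigment cell markers, 7 varied at an unadjusted p under 0.05 (Poisson deviance test) and 5 at an adjusted p under 0.05. Larger shares were thus not particular to the cell cycle lists. At an unadjusted p under 0.05 (Poisson deviance test), 10 of the 31 S phase targets varied and 5 of the 17 G2 and M targets. Among all genes tested 14.9% did. At an adjusted p under 0.05, 4 of the S phase targets varied, against 3.31% of genes. They were Rrm2, Mcm5, Mcm4 and Uhrf1, which were named after their values were seen. Without replicate 3, 0 S phase targets varied. Without replicate 1 the number was 3 (Mcm4, Rrm2 and Uhrf1) and without replicate 2 it was also 3 (Cdt1, Mcm5 and Rrm2). Over all genes tested, 129 of 11001 varied without replicate 1, 244 of 11017 without replicate 2 and 175 of 11014 without replicate 3. Of the G2 and M targets 1 varied, Mki67, which was not called without replicate 1 or without replicate 3. The genes of a list share their libraries, so these counts describe 3 libraries and carry no p.

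**Figure D4:**
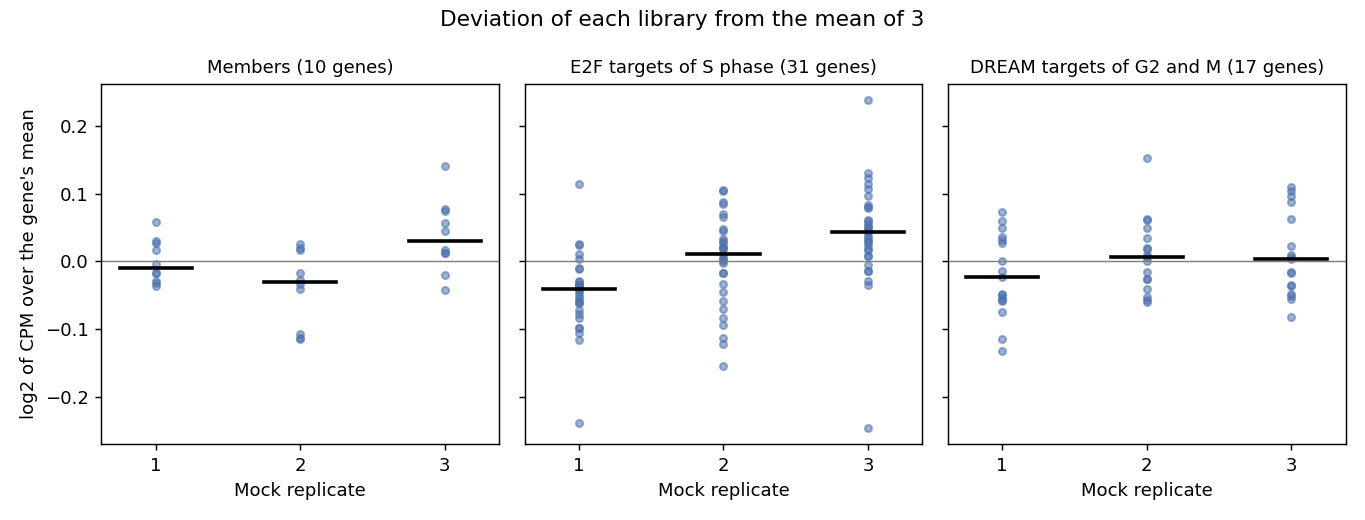
Deviation of each gene's CPM from its own mean over the 3 Mock libraries, on the log2 scale, for the 10 members, 31 S phase targets and 17 G2 and M targets, with a line at the median of each library. The S phase median is at -0.04 in replicate 1, 0.01 in replicate 2 and 0.04 in replicate 3.

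Among the genes that act on the pocket proteins, the Cdk4 and cyclin D genes had the highest CPM. Genes named as leading this and the following lists lead by CPM, and the order per kilobase can differ. Per kilobase Ccna2 at 51.7 stood above Ccnd2 at 33.9, and in the G2 and M list Plk1 at 63.4 stood above Top2a at 50.5. Of 12 cyclin and kinase genes with a row, 11 were above 1 CPM, where 74.3% of all genes were, and 1, the germ cell cyclin gene Ccna1, was below it with 10 reads in all (0.354 ± 0.123 CPM, edgeR adjusted p = 0.00698), as were 20.2% of all genes. Cdk4 stood at 724 ± 12.3 CPM, which starts the phosphorylation of pocket proteins, with its cyclin partners Ccnd3 at 683 ± 16.5, Ccnd1 at 362 ± 18.2 and Ccnd2 at 319 ± 6.16 CPM. The list median was 28.7 CPM per kilobase. Cdk3 had no row under its symbol. Of 7 CDK inhibitor genes, 5 were above 1 CPM, a share near the 74.3% of all genes, led by Cdkn1a (p21) at 230.0 ± 4.52 CPM, Cdkn1b (p27) at 102 ± 5.49, Cdkn2d at 50.9 ± 3.699 and Cdkn2c at 37.6 ± 3.49 CPM. The INK4 locus genes stood apart from these: Cdkn2b had 1 read in all and was below 1 CPM (edgeR adjusted p = 6.10e-04), and Cdkn2a was without a read, a result that a level of up to 0.106 CPM could give (3 counts over the 3 libraries, counting error only). By the Wald test of DESeq2 neither Ccna1 nor Cdkn2b was called, nor any other gene on that side of 1 CPM (0 genes, adjusted or unadjusted).

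All 8 genes of the MuvB core and its MYB and FOXM1 partners were above 1 CPM, where 74.3% of all genes were, with a list median of 6.96 CPM per kilobase, beside 4.92 for all genes tested. MuvB joins Rbl1 or Rbl2 and E2f4 to form the DREAM repressor, and joins Mybl2 and Foxm1 to activate G2 and M genes. The partner gene Foxm1 stood at 330 ± 9.64 CPM, the histone binding subunit gene Rbbp4 at 235 ± 11.3, Mybl2 at 96.9 ± 1.61 and the DNA binding subunit gene Lin54 at 28.3 ± 0.484 CPM.

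All 31 S phase targets and all 17 G2 and M targets were above 1 CPM, where 74.3% of all genes were. Their medians were 18.6 and 28.2 CPM per kilobase, against 9.31 for the members and 4.92 for all genes tested. The S phase list was led by the replication clamp gene Pcna at 447 ± 11.3 CPM, the ribonucleotide reductase subunit gene Rrm2 at 434 ± 30.9, and the helicase genes Mcm2 at 347 ± 10.997 and Mcm3 at 297 ± 7.39 CPM. The G2 and M list was led by the topoisomerase gene Top2a at 455 ± 16.3 CPM, the proliferation marker Mki67 at 436 ± 21.9, the kinesin gene Kif20a at 139 ± 6.29 and the kinase gene Plk1 at 139 ± 1.24 CPM.

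**Figure D5:**
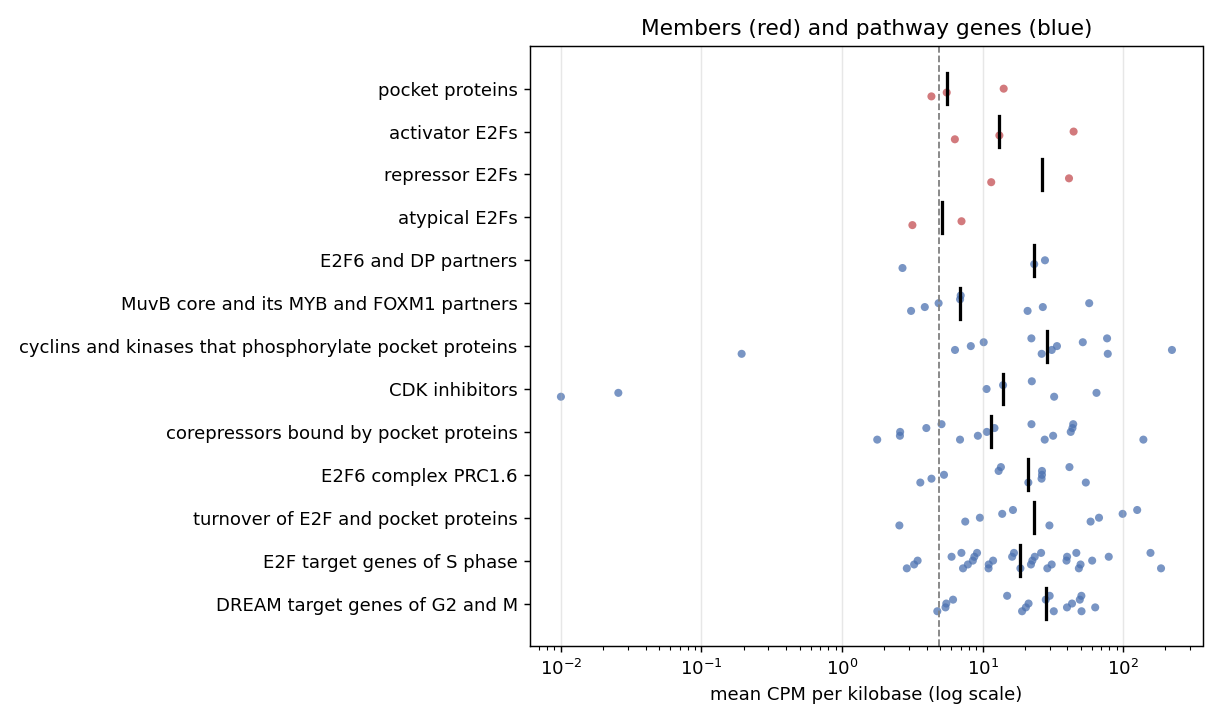
Mean CPM per kilobase of merged exon (log axis) for each member (red) and each listed gene of the pathway (blue), with a black line at each list's median and a dashed line at 4.92, the median of all genes tested. Cdkn2a, which had no counts, is drawn at the left edge, and Cdkn2b and Ccna1 are the other 2 genes far to the left.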

How the data were processed

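Total RNA of the 3 Mock samples was purified with the NucleoSpin RNA kit and BGI made the libraries, per the labels' protocols, with GRCm38.p6 as build according to the submitters' processing notes. No source used here gives the aligner, counter, annotation, filters or use of strand. The authors deposited estimated counts per gene symbol without normalization, and 13.1% of rows held a fraction (a value over 0.005 from a whole number). Counts were rounded for the tests, which left 14408 of 17285 rows with a count. CPM used the deposited counts and TMM totals. Totals ran from 9328096 to 9456527, and intervals cover counting error and the spread between libraries only.

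The test against 1 CPM used edgeR 4.0.16 (R 4.3.3), as the F statistic of a quasi-likelihood fit with an intercept alone, bounded by the Poisson likelihood ratio test, with DESeq2 1.42.0 as an alternative. Ratios per kilobase were log2 of counts plus 0.5 over exon length relative to 1 member within each library, fitted with limma 3.58.1, 1 fit for each of the 10 members (45 pairs). All genes of a fit share the error of the denominator, so an exact binomial test of summed counts was added. The call and interval of a pair are those of the fit relative to its lower gene by merged exons. Variation between libraries was a Poisson deviance test. Each was Benjamini-Hochberg adjusted over all genes tested, with calls at 0.05, and checked on simulated counts. Lengths, positions and shared words of 31 bases came from GENCODE M21 (GRCm38), and plots from matplotlib 3.10.9. Of 17285 symbols, 14095 with counts had a single GENCODE gene and were compared with a member.

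The families and gene lists were chosen with earlier results of these data known, and the members were found by symbol. Text names all members, E2f6, Tfdp1 and Tfdp2. In each other list of pathway genes it names the 4 genes of highest mean CPM and those below 1 CPM, without counts or without a row. Mcm4, Mcm5, Uhrf1 and Cdt1 are also named for their variation between libraries, and Ccna2 for its level per kilobase. Mga and Kmt5b are named beside a partner or an older name. All pigment cell markers are named, and of the markers of other cell types only those with reads. No genes were named for likeness of pattern, because 1 group holds none. Sequences are from RefSeq.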

Additional observations from a re-analysis of the deposited data

How the results depend on the processing

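All 10 members were above 1 CPM under every alternative tried (other scalings, a filter of 10 counts, DESeq2's Wald test, the exact Poisson test, 0.5 and 2 CPM as the level, each replicate left out). The number of genes below 1 CPM in the table was 2907. It was 2904 by DESeq2 size factors, 2918 by library totals alone and 3024 by the exact Poisson test. Among genes with at least 10 counts, a filter that itself removes genes of low level, it was 408. It was 0 by DESeq2's Wald test (also 0 at an unadjusted p under 0.05) and 1835 to 2203 with 1 replicate left out. The 9 neighbour steps told apart in the fits of the lower genes became 6 to 7 with 1 replicate left out. They became 5 by longest coding transcript, which changes nothing but the lengths. Steps that turned round, as log2 ratios, were E2f2 over Rbl2 at -0.38 by longest coding transcript, -0.44 without a length and -0.15 by exon bases outside other genes, E2f5 over E2f8 at -0.91 and Rb1 over E2f7 at -0.13 without a length (not called, limma adjusted p = 0.163), and, by coding sequence, Rbl1 over E2f3 at -0.97, E2f8 over E2f2 at -0.65 and Rb1 over E2f7 at -0.16 (not called, adjusted p = 0.0908). A pseudocount of 2, a filter of 10 counts and the exact binomial test left all 9 steps called in the same order. Genes varying between libraries numbered 364, and 129 to 244 with 1 replicate left out, the fewest without replicate 1 and 175 without replicate 3. The cause was not tested.

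Class ratios moved with length by more than their spread. In log2 units, by longest coding transcript they were 0.20 for activators over repressors, 2.19 for activators over atypical E2Fs, 1.99 for repressors over atypical E2Fs and -2.24 for pocket proteins over all E2Fs. By coding sequence they were 0.84, 2.86, 2.01 and -2.69, and by exon bases outside other genes the last 3 were 2.52, 2.25 and -2.29. Coding sequence, unshared exons and the binomial test were chosen after seeing the data. Coding lengths of RefSeq proteins were not run, and GENCODE coding sequences were used instead. No paired analysis was possible because the samples form 1 group, with no second group to pair replicates with.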

Other observations

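Genes around the pocket proteins and E2Fs that belong to no step above were also transcribed. Of 16 corepressor genes with a row all were above 1 CPM (74.3% of all genes were), led by the histone chaperone gene Rbbp7 at 406 ± 9.93 CPM, the heterochromatin gene Cbx5 at 398 ± 12.6, the DNA methyltransferase gene Dnmt1 at 235 ± 1.86 and the deacetylase gene Hdac2 at 195 ± 8.06 CPM (mean ± SD, n = 3). All 11 genes of the E2F6 complex were above 1 CPM, led by Cbx3 at 249 ± 4.89, Rybp at 125 ± 5.40, Yaf2 at 102 ± 5.23 and Max, the partner of Mga in that complex, at 95.3 ± 1.83 CPM. All 10 genes listed for the turnover of E2F and pocket proteins were above 1 CPM, led by the ubiquitin ligase subunit genes Ddb1 at 808 ± 10.03 and Cul1 at 237 ± 3.58, the ligase gene Mdm2 at 152 ± 3.97 and the APC/C activator gene Cdc20 at 126 ± 4.74 CPM. List medians were 11.4, 21.2 and 23.2 CPM per kilobase for these lists, beside 4.92 for all genes tested. Suv420h1, listed among the corepressors under that older name, had no row, while Kmt5b, its current name, did.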
